A study of Mus musculus with 6 samples.

Results

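The genes described here are 10 genes of glucose uptake and glycolysis: the transporters Slc2a1 and Slc2a3 and the enzymes Hk1, Hk2, Pfkp, Aldoa, Gapdh, Pgk1, Pkm and Ldha. They were chosen by name, with earlier results of these data known, out of 54532 genes in a table of read counts, and they fill 11 rows of it. Aldoa has a second row that holds 8 counts over all libraries and was not used. RNA was sequenced from CD8+ T cells of mouse liver, labelled as lymphocytes, in 3 libraries of CUMS mice and 3 libraries of control mice. The control libraries carry the genotype label Wild type, while the CUMS libraries carry CUMS in the same field. The labels do not spell out the abbreviation, and the series text speaks of chronic stress. The labels give neither strain, age, sex nor the length of the stress, and none says whether a library came from 1 animal or several. The p-values below therefore measure how the libraries vary, and that variation may be technical.

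Glycolysis converts glucose to pyruvate in the cytosol and yields ATP without oxygen. Glucose enters through facilitative transporters, hexokinase traps it as glucose 6-phosphate, phosphofructokinase commits it to the pathway, and lactate dehydrogenase turns pyruvate into lactate. Resting T cells use little glucose, and activated CD8+ T cells raise transporters and glycolytic enzymes through signalling that includes MYC, mTOR and HIF1.

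The 6 libraries held 14902248 to 18023206 counts. The number of genes with a read was 20292, 15012 and 14670 in CUMS libraries 1, 2 and 3, against 19713, 19479 and 17616 in control libraries 1, 2 and 3, so CUMS libraries 2 and 3 stood apart in complexity. T cell markers were abundant, with Cd8a, a chain of the CD8 coreceptor, at 1178 ± 32.8 CPM, that is counts scaled to one common library size, in CUMS and 798 ± 51.6 CPM in control libraries (SD, n = 3 each; edgeR adjusted p = 0.0225). Cd3e, a CD3 subunit of the T cell receptor complex, averaged 384 CPM in CUMS and 321 CPM in control libraries (edgeR adjusted p = 0.308). Cd4, which CD8+ T cells lack, averaged 93.9 ± 2.30 CPM in CUMS and 229.7 ± 11.2 CPM in control libraries (SD, n = 3 each; edgeR adjusted p = 0.000362). Albumin (Alb), the main hepatocyte transcript, averaged 7.58 CPM in CUMS and 5.58 CPM in control libraries (edgeR adjusted p = 0.586).

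None of the 10 genes differed between CUMS and control libraries past an adjusted p of 0.05. The count was 0 of 10 with edgeR's quasi-likelihood test, adjusted by Benjamini-Hochberg over 14054 genes tested, of which 1.31% were called, 0.946% as lower and 0.363% as higher. DESeq2 called 0 of 10, against 6.49% of all genes it tested, and limma voom called 0 of 10, against 3.54%. At an unadjusted p under 0.05, edgeR marked 1 of the 10, Slc2a3, against 15.3% of all genes. Slc2a3 was lower in CUMS, and 8.22% of all genes were lower at that p. DESeq2 also marked 1 of the 10 at an unadjusted p under 0.05, against 15.6% of all genes, but limma voom marked 6, against 20.1%. With 1 library left out, edgeR marked 0 (without control library 2, against 8.89% of all genes) to 4 (without CUMS library 3, against 15.3%), and 3 without control library 3, against 11.9%. The log2 fold change (CUMS over control) was below 0 for 9 of the 10 genes, against 50.7% of all genes. Its median over the 10 was -0.21, and over all genes tested -0.0051. The 3 CUMS libraries lay wholly below the 3 control libraries for Slc2a3 and wholly above them for Pfkp, so groups did not overlap for 2 of 10 genes, against 22.7% of all genes.

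**Figure D1:**
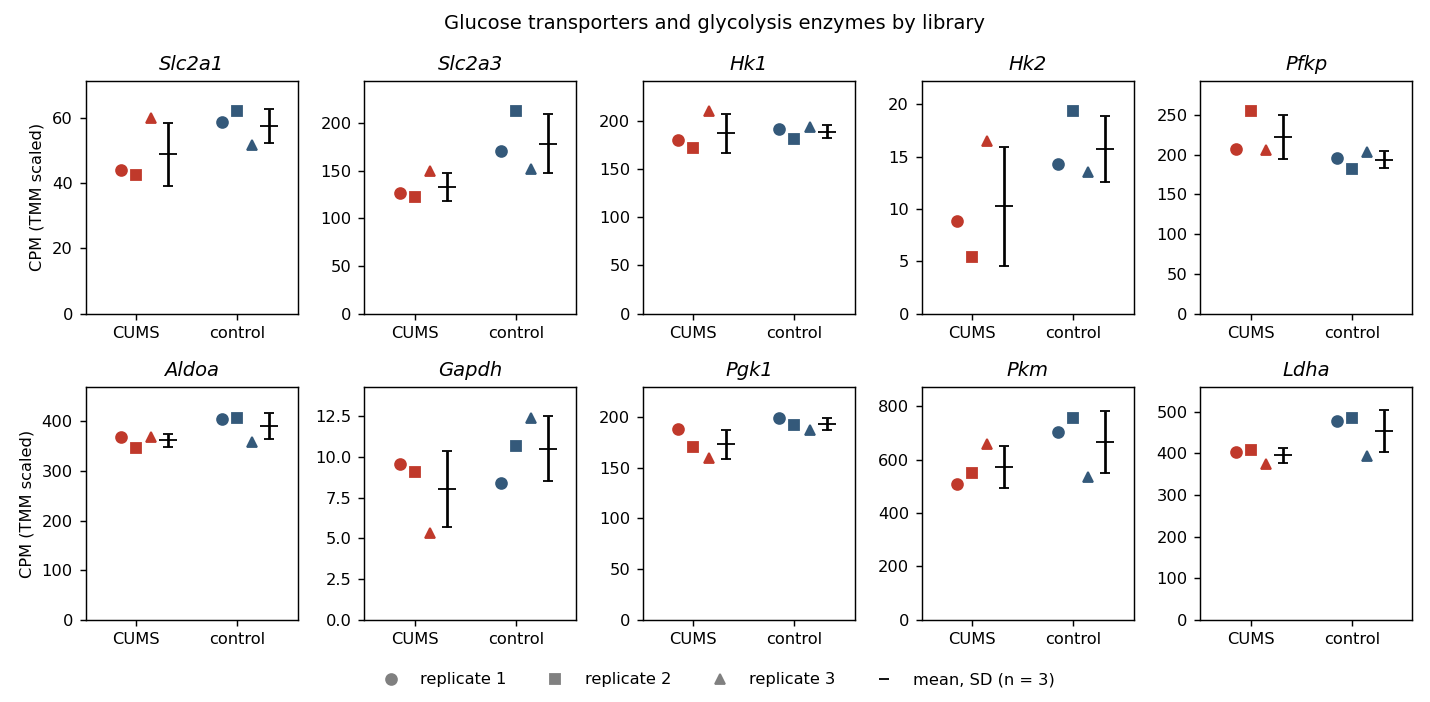
CPM of each of the 10 genes in every library, CUMS left and control right, with the mean and SD of each group (n = 3); each panel has its own axis. The groups overlap for every gene but Slc2a3, where all 3 CUMS libraries are lower, and Pfkp, where all 3 are higher.

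Together the 10 genes took 0.2025%, 0.214% and 0.225% of all counts in CUMS libraries 1, 2 and 3, and 0.238%, 0.248% and 0.209% in control libraries 1, 2 and 3. The exact binomial (Clopper-Pearson) 95% interval, which covers counting error only, was 0.223% to 0.228% in CUMS library 3 and 0.246% to 0.251% in control library 2. The groups overlapped, since control library 3 was lower than CUMS libraries 2 and 3.

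Slc2a1 and Slc2a3 encode GLUT1 and GLUT3, the main glucose transporters of T cells. Slc2a3 (chr6:122727809-122801640, minus strand, mm10) was at 127, 122 and 150.1 CPM in CUMS libraries 1, 2 and 3, against 171, 212 and 152 CPM in control libraries 1, 2 and 3. The lowest control library stood just above the highest CUMS library. Its log2 fold change was -0.42 ± 0.14 (SE), with a 95% interval of -0.73 to -0.11, an unadjusted p of 0.0116 and an edgeR adjusted p of 0.177. The estimate was -0.28 without control library 2, the highest of the 6, and -0.50 without CUMS libraries 2 and 3. With no filter on low counts, edgeR gave it an adjusted p of 0.0335. In bulk RNA, fewer cells of a type and less RNA per cell cannot be told apart.

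Slc2a1 (chr4:119108711-119137983, plus strand) was at 44.1, 42.4 and 60.04 CPM in CUMS libraries and 58.6, 62.0 and 51.8 CPM in control libraries. CUMS library 3 lay among the control libraries, and the log2 fold change was -0.24 ± 0.16 (SE; edgeR adjusted p = 0.55). Its 95% interval ran from -0.59 to 0.12. The value was -0.41 without CUMS library 3, at an edgeR adjusted p of 0.194, -0.15 without CUMS library 2, and -0.39 without both. Of the summed level of the class I transporters per kilobase of gene length in the table, Slc2a3 made up 58.2%, 58.3% and 54.8% in CUMS libraries and 58.5%, 62.3% and 58.6% in control libraries. The remainder was almost all Slc2a1. Slc2a2 and Slc2a4, the liver and muscle transporters, held no read in the CUMS libraries and at most 0.166% of that sum in a control library. The mean Slc2a3 share was 57.1% in CUMS and 59.8% in control libraries, and the gap between the closest libraries of the 2 groups was far smaller than the SD within either.

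Hexokinases phosphorylate glucose on entry. Hk1 (chr10:62268855-62379908, minus strand), the form bound to mitochondria in most tissues, was at 180.1, 171 and 209.8 CPM in CUMS libraries and 192, 181 and 193 CPM in control libraries. It had the smallest change of the 10 genes, with a log2 fold change of -0.013 ± 0.11 (SE; edgeR adjusted p = 0.976). The 95% interval allows a level in CUMS between 0.836 and 1.17 times that of control. Its sign turned with the scaling, to 0.023 with library size alone, and it was -0.073 without CUMS libraries 2 and 3.

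Hk2 (chr6:82725025-82774454, minus strand) encodes the inducible form, which rises with T cell activation. It was low, at 8.86, 5.41 and 16.5 CPM in CUMS libraries and 14.3, 19.3 and 13.5 CPM in control libraries. CUMS library 3 was above 2 of the control libraries, while CUMS libraries 1 and 2 were below all 3. The log2 fold change of -0.62 ± 0.35 (SE; edgeR adjusted p = 0.463) had the widest 95% interval of the 10 genes, -1.39 to 0.16. With all libraries it was the furthest from 0 among the 10, but not without CUMS library 2, where it was -0.32 and Gapdh -0.49. It was -1.14 without CUMS library 3, at an edgeR adjusted p of 0.09, and -0.83 without both, at an edgeR adjusted p of 0.329.

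Hk3, a hexokinase of myeloid cells, is no member but shares the step. It was at 29.7, 28.2 and 39.9 CPM in CUMS libraries and 40.1, 66.5 and 38.7 CPM in control libraries (log2 fold change -0.57 ± 0.22 SE; edgeR adjusted p = 0.253). By summed level per kilobase, Hk1 made up 68.8%, 70.1% and 64.4% of the hexokinases in CUMS libraries and 62.7%, 49.9% and 64.0% in control libraries. The CUMS libraries were all above the control libraries, by a mean of 8.87 percentage points. Without control library 2, which held the lowest Hk1 share and the highest Hk3 share (42.4%), that difference was 4.39 points.

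Pfkp (chr13:6579768-6648777, minus strand), the platelet-type phosphofructokinase, catalyses the committed step. It was at 207, 254 and 206 CPM in CUMS libraries and 196, 182 and 204 CPM in control libraries. Pfkp alone of the 10 genes had a positive log2 fold change, 0.20 ± 0.12 (SE; 95% interval -0.057 to 0.46; edgeR adjusted p = 0.478). CUMS library 2 gave most of it, and the other 2 CUMS libraries stood just above the highest control library. The value was 0.090 without CUMS library 2, and the same without CUMS libraries 2 and 3. The gene's exons overlap those of Pitrm1 on the opposite strand over 18.05% of the representative transcript, and whether strand was used in counting is not given in the sources used here.

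Among phosphofructokinases, Pfkp made up 53.9% ± 4.03 of the summed level per kilobase in CUMS and 54.0% ± 4.31 in control libraries (SD, n = 3 each). The liver-type enzyme Pfkl supplied 31.0% ± 5.14 in CUMS and 33.0% ± 1.91 in control libraries (SD, n = 3 each), so the makeup overlapped between groups. These shares depend on the length used. Per kilobase of a representative transcript, Pfkp made up 70.4% in CUMS and 70.1% in control libraries, and Pfkl 22.5% in CUMS and 23.8% in control libraries. On that scale Slc2a3 was 69.3% of the class I transporters in CUMS and 71.7% in control libraries, Hk1 was 80.4% of the hexokinases in CUMS and 73.5% in control libraries, and Hk3 was 16.6% in CUMS and 22.3% in control libraries.

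**Figure D2:**
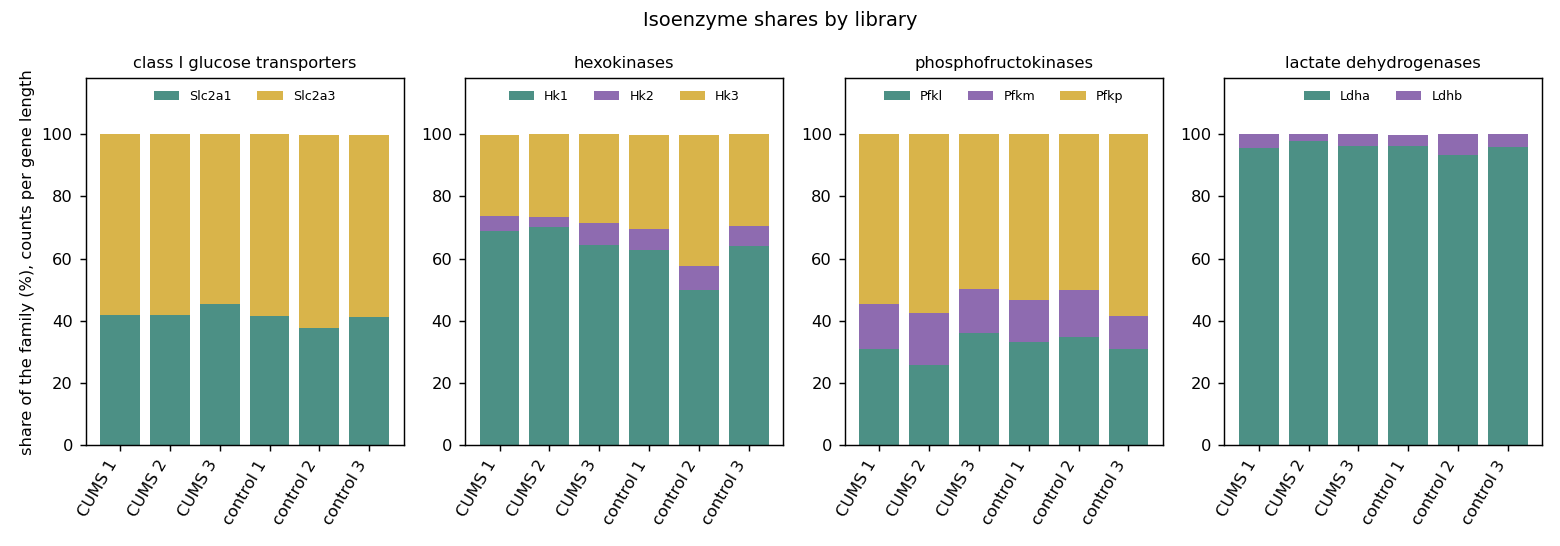
Share in percent of each isoenzyme in the summed level per kilobase of its family in every library, CUMS left and control right. Hk1 holds 64.4% to 70.1% of the hexokinases in CUMS and 49.9% to 64.0% in control libraries, while the phosphofructokinases overlap.

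Aldolase splits fructose 1,6-bisphosphate into 2 trioses. Aldoa (chr7:126795234-126800751, minus strand) was at 369, 347 and 369 CPM in CUMS libraries and 404, 408 and 359 CPM in control libraries. Control library 3 was below 2 of the CUMS libraries, and the log2 fold change was -0.11 ± 0.10 (SE; edgeR adjusted p = 0.677). Its 95% interval of -0.33 to 0.11 was the narrowest of the 10, and the value without CUMS libraries 2 and 3 was -0.088. It was -0.18 without control library 3.

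Pgk1 (chrX:106187100-106203699, plus strand), phosphoglycerate kinase, makes the first ATP of the pathway. It was at 188, 171 and 159.7 CPM in CUMS libraries and 199, 192 and 187 CPM in control libraries. CUMS library 1 lay between control libraries, and CUMS libraries 2 and 3 were below them. The log2 fold change was -0.16 ± 0.11 (SE; 95% interval -0.39 to 0.075; edgeR adjusted p = 0.543). It was -0.041 without CUMS libraries 2 and 3.

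Gapdh (chr6:125161715-125166467, minus strand), glyceraldehyde-3-phosphate dehydrogenase, is widely used as a reference gene and is normally among the most abundant mRNAs of a cell. Here it had only 171, 148 and 81 counts in CUMS libraries and 149, 190 and 217 counts in control libraries. These were 9.59, 9.10 and 5.34 CPM in CUMS and 8.42, 10.7 and 12.4 CPM in control libraries. Libraries 1 and 2 of each group overlapped, CUMS library 3 was lowest and control library 3 highest. The log2 fold change was -0.39 ± 0.30 (SE; 95% interval -1.05 to 0.27; edgeR adjusted p = 0.612), and it was -0.17 without CUMS library 3 and -0.13 without CUMS libraries 2 and 3.

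Gapdh has many processed pseudogenes, and a read that matches several places in the genome may be dropped or assigned elsewhere, depending on settings for which no source used here gives a value. Of the 100-base stretches of the representative Gapdh transcript, 85.8% also occur exactly in annotated transcripts of other genes. No other of the 10 genes came near this except Pgk1, at 67.0%. Pkm shared 9.82% and Ldha 1.28%, and none of the stretches of Slc2a1, Slc2a3, Hk1, Hk2, Pfkp or Aldoa was shared. One 100-base stretch of Gapdh is printed to show how close the copies are. Beside it is the stretch of 2 copies that held counts, chosen after their counts were seen. The Gapdh stretch lies at chr6:125162901-125163000 (GRCm38, minus strand) and occurs unchanged in transcripts of 37 other genes. The Gm5559 stretch lies at chr5:95862075-95862174 (plus strand) and the 3000002C10Rik stretch at chr9:109830914-109831013 (minus strand). Capitals mark bases that differ from Gapdh.
Gapdh: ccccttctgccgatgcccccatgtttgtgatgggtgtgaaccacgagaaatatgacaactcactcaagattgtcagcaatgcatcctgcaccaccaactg
Gm5559: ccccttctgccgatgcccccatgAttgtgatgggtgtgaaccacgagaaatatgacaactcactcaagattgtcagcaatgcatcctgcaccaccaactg
3000002C10Rik: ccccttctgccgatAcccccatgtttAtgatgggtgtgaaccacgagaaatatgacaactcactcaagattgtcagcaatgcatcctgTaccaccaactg
Counted from 1 at the 5′ end of the stretch, with the Gapdh base first, Gm5559 differs by T24A and 3000002C10Rik by G15A, G27A and C89T.

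Gm5559 held 465 counts and 3000002C10Rik 225 counts over the 6 libraries, against 956 for Gapdh itself. In all, 212 pseudogene rows share at least one 50-base stretch with Gapdh. Of these, 90 had a read, 122 had none and 6 had at least 100 counts, and together they held 3017 counts. The row with the most, Gm7336, had 981 counts over the 6 libraries, more than Gapdh. With these rows added, the Gapdh level was 40.5, 33.1 and 41.2 CPM in CUMS libraries and 36.2, 44.003 and 37.9 CPM in control libraries. The log2 fold change of that sum was -0.042 (edgeR adjusted p = 0.942), in an alternative chosen after seeing the data. The pseudogene rows made up 76.3%, 72.5% and 87.0% of the sum in CUMS libraries and 76.8%, 75.8% and 67.3% in control libraries. Eno1, another enzyme of the pathway, shared 59.0% of its 100-base stretches and had 63362 counts, and Pgk1 had 18784. Other genes sharing a 50-base stretch numbered 9 for Eno1, of which 7 were pseudogene rows. For Pgk1 they numbered 5, of which 4 were pseudogene rows. The part of shared sequence in the count of any of these genes was not tested.

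**Figure D3:**
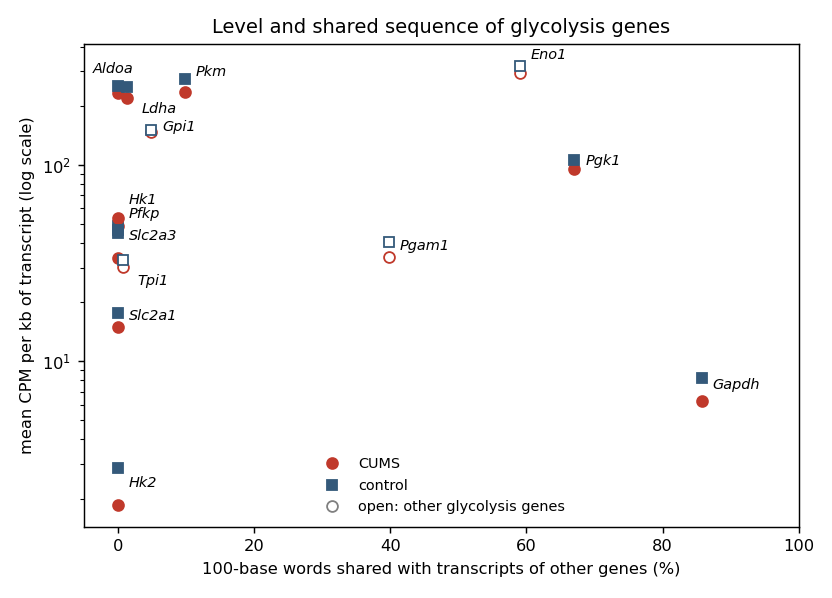
Mean CPM per kilobase of representative transcript (log axis) against the percent of 100-base stretches shared exactly with transcripts of other genes; filled symbols are the 10 genes, open symbols other glycolysis genes. Gapdh lies at 85.8% shared and is among the lowest in level. Eno1 lies at 59.0% and Pgk1 at 67.0%, both at higher levels.

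Pkm and Ldha end the pathway. Pkm (chr9:59656368-59679375, plus strand), the pyruvate kinase of non-hepatic tissue, was the most abundant of the 10 in CPM. It was at 509, 549.7 and 659.9 CPM in CUMS libraries and 704, 758 and 536 CPM in control libraries. Control library 3 was below 2 of the CUMS libraries, and the log2 fold change was -0.22 ± 0.14 (SE; 95% interval -0.53 to 0.095; edgeR adjusted p = 0.531). It was -0.12 without control library 2, -0.36 without control library 3, -0.34 without CUMS library 3 and -0.40 without CUMS libraries 2 and 3. Gene counts do not separate the muscle and proliferating-cell splice forms of Pkm. The liver pyruvate kinase Pklr had no read in the CUMS libraries and at most 0.0686% of the pyruvate kinase level in a control library.

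Ldha (chr7:46841475-46855627, plus strand), the lactate dehydrogenase subunit that favours lactate formation, was at 403, 409 and 374 CPM in CUMS libraries and 477, 486 and 394.5 CPM in control libraries. Control library 3 was below CUMS libraries 1 and 2. The log2 fold change was -0.20 ± 0.11 (SE; 95% interval -0.44 to 0.048; edgeR adjusted p = 0.457), with -0.30 without control library 3 and -0.17 without CUMS libraries 2 and 3. Ldha made up 96.6% ± 1.22 of the lactate dehydrogenase level per kilobase in CUMS and 95.2% ± 1.49 in control libraries (SD, n = 3 each). For Ldhb, the form that favours pyruvate, the log2 fold change was -0.73, at an edgeR adjusted p of 0.391.

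**Figure D4:**
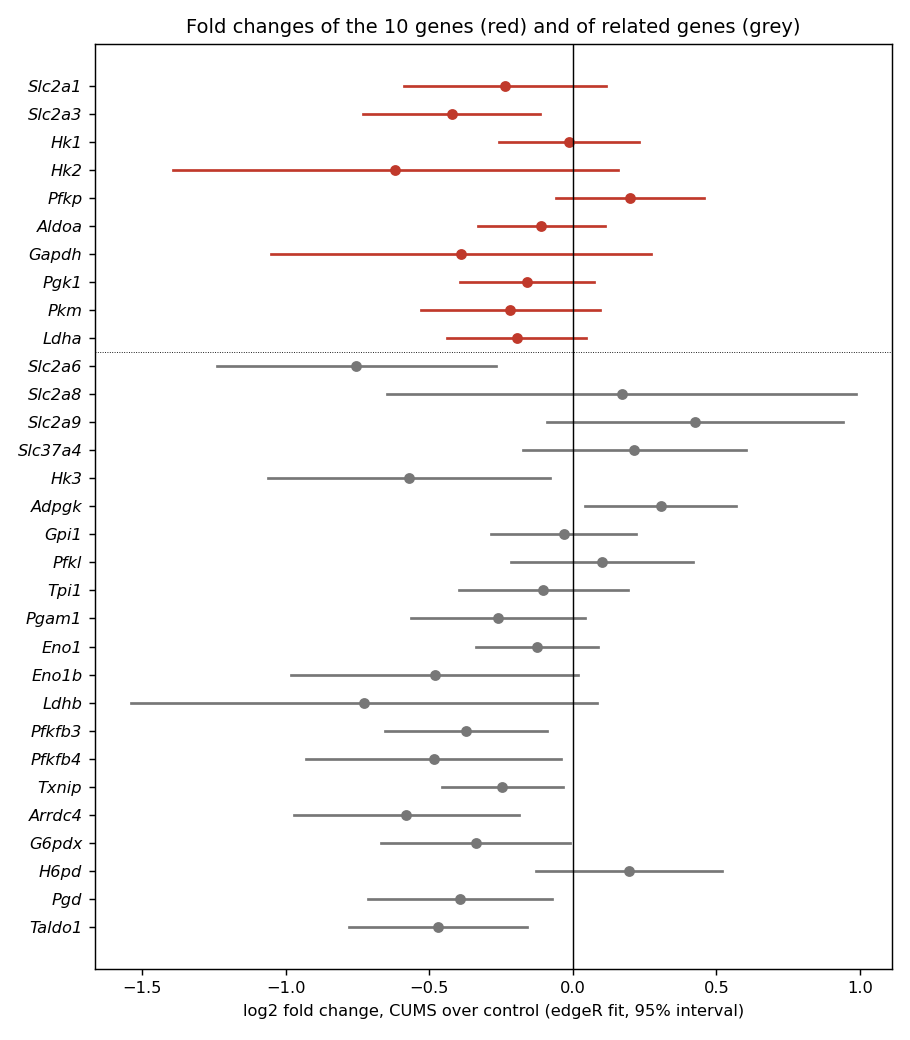
Log2 fold change (CUMS over control) with its 95% interval from edgeR for the 10 genes and for the other glycolysis, transporter, regulator and pentose phosphate genes named in the text. The interval of Slc2a3 (-0.73 to -0.11) leaves out 0 before adjustment, and those of the other 9 genes include it.

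On the scale of CPM per kilobase of gene length, Aldoa at 124 ± 4.33, Ldha at 119 ± 5.52 and Pkm at 115 ± 15.6 led in CUMS libraries (SD, n = 3 each) and did not differ beyond their spread. In control libraries the same genes led, at 134 ± 9.22 for Aldoa, 137 ± 15.2 for Ldha and 133 ± 23.1 for Pkm (SD, n = 3 each). Pgk1 followed, at 77.0 ± 6.42 in CUMS and 86.0 ± 2.70 in control libraries (SD, n = 3 each), apart from its neighbours. Hk1, Slc2a3, Pfkp and Slc2a1 formed the next tier, at 13.9 to 21.9 in CUMS and 14.5 to 24.6 in control libraries. Gapdh and Hk2 were lowest and overlapped each other, at 1.94 and 1.72 in CUMS and 2.54 and 2.63 in control libraries. With the length of a representative transcript in place of the table's length, Pkm came first and Gapdh stood above Hk2.

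The enzymes of the pathway outside the 10 genes did not pass the test either. Of 23 other glycolysis enzymes, 17 were tested and edgeR called 0, against 1.31% of all genes. At an unadjusted p under 0.05, 2 were lower and 1 higher, against 15.3% of all genes in either direction. Of the 17, 11 were below 0, against 50.7% of all genes, and the median log2 fold change was -0.10. For Gpi1, which isomerises glucose 6-phosphate, the log2 fold change was -0.032 (edgeR adjusted p = 0.941), and for triosephosphate isomerase Tpi1 it was -0.10 (edgeR adjusted p = 0.80). For phosphoglycerate mutase Pgam1 it was -0.26 (edgeR adjusted p = 0.416), and for enolase Eno1 -0.12 (edgeR adjusted p = 0.616). Adpgk, an ADP-dependent glucokinase, was at 75.9, 80.4 and 89.6 CPM in CUMS libraries and 63.8, 66.1 and 68.9 CPM in control libraries, without overlap (log2 fold change 0.31; edgeR adjusted p = 0.252). Pfkl had 0.10 on the same scale (edgeR adjusted p = 0.815). Of the 17 tested, 1 was higher in CUMS without overlap (Adpgk), against 10.8% of all genes. Another 4 were lower without overlap, against 11.9%.

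Of 13 other hexose transporters, 4 were tested and 0 were called, against 1.31% of all genes. Slc2a6 was at 21.7, 22.3 and 21.7 CPM in CUMS libraries and 31.9, 51.0 and 27.9 CPM in control libraries, without overlap. Its log2 fold change of -0.75 ± 0.22 (SE) had an edgeR adjusted p of 0.127. DESeq2 gave an adjusted p of 0.0402, edgeR with no filter on low counts gave 0.00699, and without control library 2 the value was -0.45. For Slc2a8 the log2 fold change was 0.17 (edgeR adjusted p = 0.892), which turned to -0.19 without CUMS library 2. Slc2a9, which also carries urate, averaged 13.2 ± 2.21 CPM in CUMS and 9.83 ± 0.91 CPM in control libraries (SD, n = 3 each; edgeR adjusted p = 0.442). Slc37a4, which moves glucose 6-phosphate into the endoplasmic reticulum, averaged 21.8 ± 0.96 CPM in CUMS and 18.8 ± 1.51 CPM in control libraries (SD, n = 3 each; edgeR adjusted p = 0.64). Of the 4 tested, 1 was lower in CUMS without overlap (Slc2a6) and 2 were higher without overlap (Slc2a9 and Slc37a4). Over all genes, 11.9% were lower and 10.8% higher without overlap.

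Among 7 regulators of glucose uptake and flux, 0 were called, against 1.31% of all genes, and the median was -0.24. At an unadjusted p under 0.05, 4 were lower, against 8.22% of all genes. Arrdc4 and Txnip, arrestins that restrain glucose uptake, had log2 fold changes of -0.58 (edgeR adjusted p = 0.148) and -0.24 (edgeR adjusted p = 0.252). For Pfkfb3, which makes the activator of phosphofructokinase, it was -0.37 (edgeR adjusted p = 0.195), and for Pfkfb4, of the same family, -0.49 (edgeR adjusted p = 0.281). Among 8 pentose phosphate genes, 0 were called, with a median of -0.099. At an unadjusted p under 0.05, 3 were lower, against the same 8.22% of all genes. For transaldolase Taldo1 the log2 fold change was -0.47, with an edgeR adjusted p of 0.139, while DESeq2 gave an adjusted p of 0.0219, limma voom 0.0358 and edgeR with no filter on low counts 0.00967. G6pdx and Pgd, the NADPH-forming dehydrogenases of the pathway, had -0.34 (edgeR adjusted p = 0.314) and -0.39 (edgeR adjusted p = 0.227), and H6pd, their counterpart in the endoplasmic reticulum, 0.20 (edgeR adjusted p = 0.599).

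Markers of other cells moved between the groups alongside these values. The 15 monocyte and neutrophil markers summed to 2959, 2850.4 and 2785 CPM in CUMS libraries and 4238, 6466 and 4131 CPM in control libraries. Of the 15, edgeR called 5 lower and 0 higher, against 0.946% of all genes called lower and 0.363% called higher. S100a9, a neutrophil calgranulin subunit, fell to 590 ± 156 CPM in CUMS, against 1207 ± 335 CPM in control libraries (SD, n = 3 each; edgeR adjusted p = 0.0363). Control library 2, highest in the monocyte and neutrophil sum, was also the highest library for 6 of the 10 genes, Slc2a3 and Hk2 among them, and for Hk3. The same library was the lowest for 1 of the 10, Pfkp. How many of all genes were highest in control library 2 was not counted, so the 6 have no background to be read against. The 4 CD4 T cell markers were all called lower, against 0.946% of all genes. They summed to 154 to 167 CPM in CUMS and 342 to 396 CPM in control libraries. Of 10 T cell markers edgeR called 1, Cd8a, as higher, against 0.363% of all genes. The 10 markers summed to 4733 to 5239 CPM in CUMS and 4022 to 4283 CPM in control libraries.

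No NK cell marker (7 of 7 tested) or B cell marker (7 of 7) was called by edgeR, against 1.31% of all genes. The same held for hepatocyte markers (5 of 9 tested), Kupffer cell markers (2 of 8) and erythroid markers (2 of 6). NK cell markers summed to 121 to 129 CPM in CUMS and 170.0 to 279 CPM in control libraries. Most of that sum was Tyrobp, at a mean of 58.6 CPM in CUMS and 107 CPM in control libraries, and Fcer1g, at 42.0 and 69.0 CPM. Both were highest in control library 2, as was the monocyte and neutrophil sum. Klrb1c averaged 10.9 CPM in CUMS and 19.1 CPM in control libraries, Klre1 9.33 and 14.3 CPM, and Ncr1 2.56 and 2.66 CPM. B cell markers summed to 104 to 133 CPM in CUMS and 114 to 126 CPM in control libraries. Hepatocyte markers summed to 11.9 to 18.7 CPM in CUMS and 9.84 to 12.3 CPM in control libraries. Kupffer cell markers summed to 0 to 2.57 CPM in CUMS and 3.20 to 5.84 CPM in control libraries, with Timd4 at 0 throughout, and erythroid markers to 1.66 to 4.43 CPM in CUMS and 2.09 to 6.17 CPM in control libraries. At an unadjusted p under 0.05, edgeR marked 4 NK, 1 B cell and 2 hepatocyte markers and 0 of the others, against 15.3% of all genes. The part of other cells in the values of the 10 genes was not tested.

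**Figure D5:**
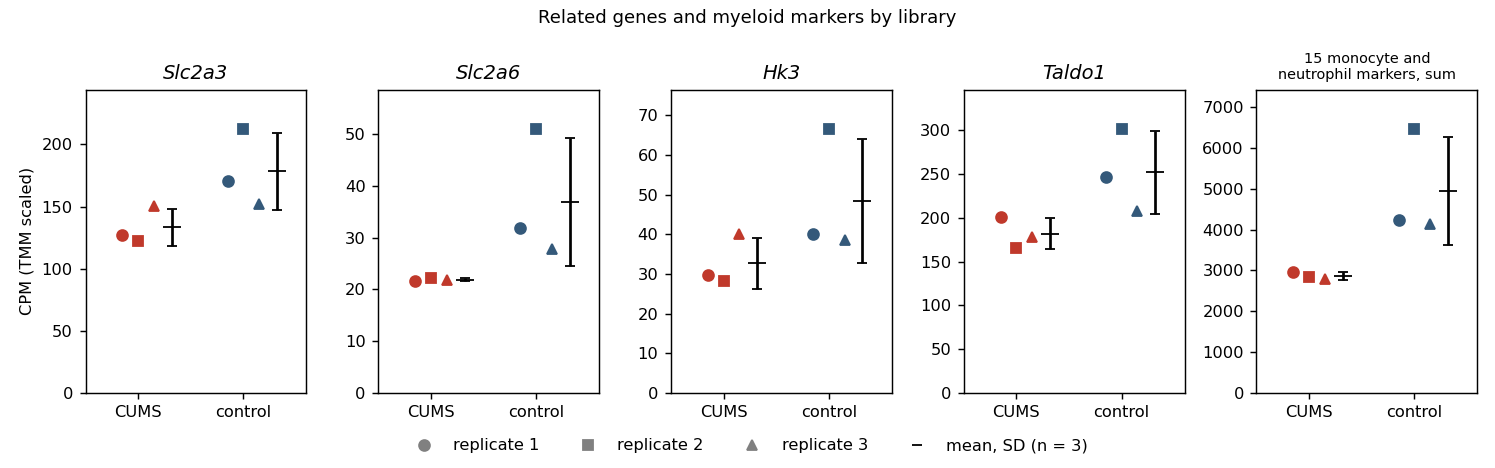
Levels of Slc2a3, Slc2a6, Hk3 and the pentose phosphate gene Taldo1 in each library, with CUMS and control libraries marked apart. Beside them is the summed CPM of 15 monocyte and neutrophil markers. The genes shown are a selection, and each is highest in control library 2. Control library 2 has the highest marker sum, 6466 CPM, and the highest Slc2a3 level, 212 CPM. Pfkp, which is not shown, was lowest in that library, at 182 CPM.

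By level pattern, the genes most like Slc2a3 were Ksr1, Tex2, Tmcc1, Sephs2 and Pxn. Their root mean square differences in centred log2 CPM from Slc2a3 over the 6 libraries were 0.0412, 0.0446, 0.048, 0.0627 and 0.0701, the smallest among 5726 genes compared.

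Promoters are shown because HIF1, which binds the core ACGTG or GCGTG, and MYC, which binds CACGTG, are known regulators of glycolytic genes. RefSeq (GRCm38.p6) gave promoter windows, 250 bases before to 50 after a start, for 9 of the 10 genes. ACGTG or GCGTG, searched on both strands, occurred in at least 1 window of 9 of 9 genes, against 46.7% of 27025 genes. ACGTG alone occurred in 8 of 9, against 21.8%, and GCGTG in 5 of 9, against 35.2%. CACGTG, which contains ACGTG on both strands, occurred in Ldha only, against 8.09% of genes. Genes with several starts have more windows, and a match is a description of letters, not of binding. For Hk1 and Pkm, the window whose start lies in the representative transcript held 0 matches of ACGTG or GCGTG. Their matches came from windows of other starts. No window of Aldoa or Gapdh had its start in the representative transcript. The window of an upstream Ldha start at chr7:46845554-46845853 and of Pgk1 at chrX:106186850-106187149, both on the plus strand, are printed, with the matches on either strand in capitals. They show the window with CACGTG and a gene with a single start.
Ldha: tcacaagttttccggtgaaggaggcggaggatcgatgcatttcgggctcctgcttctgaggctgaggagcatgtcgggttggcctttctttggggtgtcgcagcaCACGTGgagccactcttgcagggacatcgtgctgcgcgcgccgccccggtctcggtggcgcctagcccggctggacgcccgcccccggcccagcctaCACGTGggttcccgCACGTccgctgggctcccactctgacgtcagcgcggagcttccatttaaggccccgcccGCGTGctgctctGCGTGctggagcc
Pgk1: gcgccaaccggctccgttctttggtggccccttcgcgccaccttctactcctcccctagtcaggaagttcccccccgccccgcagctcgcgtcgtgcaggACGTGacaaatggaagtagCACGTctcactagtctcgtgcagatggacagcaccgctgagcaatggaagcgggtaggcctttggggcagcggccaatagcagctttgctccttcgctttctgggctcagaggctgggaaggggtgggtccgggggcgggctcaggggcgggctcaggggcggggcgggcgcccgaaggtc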

How the data were processed

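Read counts per gene were deposited as whole numbers by the authors. The submitters' processing notes name the build mm10, DESeq2 1.20.0, featureCounts 1.5.0-p3, HISAT2 2.0.5 and fastp. No source used here gives the annotation release or the strand and multiple-mapping settings. The NEB libraries were made from fragmented mRNA with random primers, per the labels' protocols. All 54532 genes of the 6 libraries were read. With edgeR 4.0.16 (R 4.3.3), filterByExpr kept 14054 genes, TMM scaled them, and glmQLFTest compared CUMS with control, two-sided, with Benjamini-Hochberg adjustment over all genes tested and a threshold of 0.05. Intervals are 95%. CPM uses TMM-scaled library sizes. Alternatives used DESeq2 1.42.0, limma 3.58.1 voom with sample weights, other scalings and filters, a replicate block, and omitted libraries. Isoenzyme shares were given without a test, since 3 against 3 cannot go below p = 0.1 in an exact permutation test. The fits were also run on simulated counts, which varied less between libraries than these data. That run therefore does not show how the fits perform here.

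The members and lists were chosen with earlier results of these data known. Named were all members, up to 4 genes of smallest p from each other pathway list, the remaining steps of the pathway, 5 markers, and the 5 genes most like the member of smallest p among genes whose log2 CPM averaged 5 or more. Shared stretches and overlaps used GENCODE M21 (GRCm38), which held 54495 of the gene IDs, and promoters came from RefSeq. One gene that this rule takes, and its share of its family, are not reported here.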

Additional observations from a re-analysis of the deposited data

How the results depend on the processing

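Over 170 values of the 10 genes under alternatives, 165 kept their direction and side of the threshold, 4 turned sign (all Hk1) and 1 passed the threshold. With no low-count filter, edgeR called 704 of 24044 genes tested, against 184 of 14054 with the filter. Among them were 1 of the 10 genes (Slc2a3, adjusted p = 0.0335) and 1 other glycolysis enzyme (Hk3, adjusted p = 0.0355). Slc2a6 and Taldo1 passed too. The count over all genes, 184, was 704 without a filter, 316 with a stricter one, 665 with DESeq2, 497 with limma voom, 280 with protein-coding genes only and 7 without CUMS libraries 2 and 3. It ranged from 9 to 178 with 1 library left out, 9 without CUMS library 2 and 19 without control library 2. Hk1 gave 0.023 with library size alone and 0.0043 with the stricter filter, and -0.11 to 0.043 with 1 library left out. With 1 library left out, Gpi1 ranged from -0.12 to 0.018, Pfkl from -0.036 to 0.17 and Slc2a8 from -0.19 to 0.46. Gpi1 was 0.0056 with library size alone. Without CUMS libraries 2 and 3, where 1 CUMS library is assumed to vary like the others, Pfkl was -0.016, Slc2a8 -0.73 and H6pd -0.032, and the difference in the Eno1 share of the enolases was -2.20 points (-0.041 with all libraries). The replicate block gave 71 genes. Deviations from the group means were little correlated between same-numbered libraries (r = 0.0052, -0.032 and -0.062). Libraries of unlike number gave r of -0.040 to 0.060. With 3 libraries per group, these values cannot decide whether the numbers pair the libraries. The causes of these changes were not tested. Hk2 and Gapdh, with few reads, have the widest intervals.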

Other observations

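CUMS library 2 was the lowest of the 6 libraries for 5 of the 10 genes, CUMS library 3 for 3, CUMS library 1 for 1 and control library 2 for 1. Control library 2 was the highest for 6, and CUMS library 2, CUMS library 3, control library 1 and control library 3 for 1 each. The same counts over all genes were not made.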
